A study of Mus musculus with 4 samples.

Results

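The cells described here are retinal ganglion cells that carried at least 2 transcripts of Foxp2, which encodes a forkhead transcription factor, in a single-cell RNA-seq library of sorted mouse retinal cells. There were 98 of them among 948 barcodes that met a ganglion cell gate, a share of 10.3% (95% exact binomial interval 8.47 to 12.5%), and among 3237 barcodes in all. The gate required at least 1 unique molecular identifier (UMI, which tags 1 captured transcript) of Slc17a6, the vesicular glutamate transporter of ganglion cells, at least 3 UMIs of Slc17a6 and Rbpms together (Rbpms is an RNA-binding protein used to mark ganglion cells), at most 1 UMI of the horizontal cell factor Lhx1 and less than 10% mitochondrial UMIs. A further 816 barcodes of the gate had no Foxp2 UMI and are called Foxp2-undetected below, and 34 had exactly 1. The 98 Foxp2-high cells were then divided 3 ways, by the serine synthesis enzyme Phgdh (45 cells with a UMI, 53 without), by Coch and Lor together (16 cells with 5 UMIs or more, 78 with 1 or fewer, 4 between) and by the forkhead factor Foxp1 (43 cells with a UMI, 55 without). Every one of these classes was chosen on measured counts, so the genes that chose them are given as description.

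All cells came from retinas of C57BL/6 mice aged 3 months that carried a Brn3b::GFP reporter. Brn3b is another name of Pou4f2, a POU-domain factor of ganglion cells, so cells were sorted for a reporter of that gene. The sorted barcodes also included 797 in a bipolar, 456 in a horizontal, 259 in a Mueller glia and 179 in a microglia gate. The labels list 4 retinas, but the count matrix names no retina for any barcode, so the data are 1 pooled sample of 10x Chromium 3' libraries. Differences between cells could not be set against differences between animals, no test was possible, and each interval below is a 95% exact interval that covers counting error only.

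Retinal ganglion cells are the output neurons of the eye and fall into many types, which differ in dendritic shape, in the visual feature they report and in the transcription factors they keep. FOXP2 marks a family of small ganglion cells in the mouse retina, the F-RGCs, whose members are told apart by further factors such as FOXP1 and the POU4 (Brn3) proteins. FOXP1 and FOXP2 are related forkhead repressors that can bind DNA as a pair.

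The matrix held 31361961 UMIs, with 3198 to 53709 per barcode and a median of 7674. Foxp2-high cells had a median of 15372 UMIs and 4393.5 detected genes per cell, against 16074.5 UMIs and 4536.5 genes in Foxp2-undetected cells. Their median mitochondrial share was 3.32%, against 4.02%. A simulation-based doublet caller marked 2 of the 98 cells and 26 of the 816. At least 3 UMIs of genes that marked other retinal cells were present in 49 of the 98 and in 440 of the 816. Summed levels of 8 rod markers were 848 CPM (a gene's UMIs divided by all UMIs of the class of cells, on the usual scale) in Foxp2-high cells, against 599 CPM in Foxp2-undetected cells, with 1 to 242 UMIs per cell (median 7) and 0 to 257 (median 7); their part in the results was not tested. Of the other lists of non-ganglion markers, 12 amacrine genes summed to 567 CPM against 505 CPM, and the cone, bipolar, horizontal, Mueller glia, astrocyte, microglia and endothelial lists were lower in Foxp2-high than in Foxp2-undetected cells. Of 15 ganglion cell markers, Slc17a6 and Rbpms were used by the gate and were left out of the counts. The other 13 passed the minimum of 100 UMIs. None of the 13 was at least 2-fold higher and only Pou4f3 was at least 2-fold lower. All 15, gate genes included, summed to 11668 CPM and 12414 CPM. Apart from the genes the gate used, 12 of 13 ganglion cell markers were thus within 2-fold of their level in the Foxp2-undetected cells.

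Foxp2 counts in the 98 cells ranged from 2 to 14 UMIs with a median of 4. Just inside the threshold, 23 cells had 2 UMIs, and just outside it 34 cells had 1. A further 41 cells had 3 or 4 UMIs and 34 had 5 or more. In 456 barcodes of a horizontal cell gate, which should lack the gene, 3 had a Foxp2 UMI and none had more than 1.

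Spon1 and Lmo4 were higher in cells with 1 Foxp2 UMI than in cells with 0 and higher again from 2 UMIs on. Ctxn3 and Irx6 were lower with 1 Foxp2 UMI than with 0 and lower again from 2 UMIs on, and Pcdh20 and Gfi1 followed no such order. Spon1, which encodes the secreted matrix protein F-spondin, was at 26.4 CPM in cells with 0 Foxp2 UMIs, 45.9 CPM with 1, 131 CPM with 2, 126 CPM with 3 or 4 and 206 CPM with 5 or more. Lmo4, a LIM-only partner of transcription factors, was at 68.6, 153, 241, 288 and 309 CPM in the same 5 classes. Ctxn3, which encodes a small membrane protein of neurons, ran the other way, at 232, 62.9, 13.7, 8.27 and 3.10 CPM. So did Irx6, at 108, 47.6, 24.6, 4.96 and 1.55 CPM. In the last 3 classes these levels rested on 5, 5 and 2 UMIs of Ctxn3 and 9, 3 and 1 of Irx6. Intervals of neighbouring classes overlapped there, so an order among those 3 is not shown for either gene. Pcdh20 was at 5.55, 22.1, 19.1, 26.5 and 34.1 CPM, and Gfi1 at 0.865, 15.3, 13.7, 26.5 and 6.20 CPM. Phgdh did not follow the count of Foxp2 within the 98 cells. It was at 73.8 CPM with 2 Foxp2 UMIs, 126 CPM with 3 or 4 and 72.9 CPM with 5 or more.

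**Figure D1:**
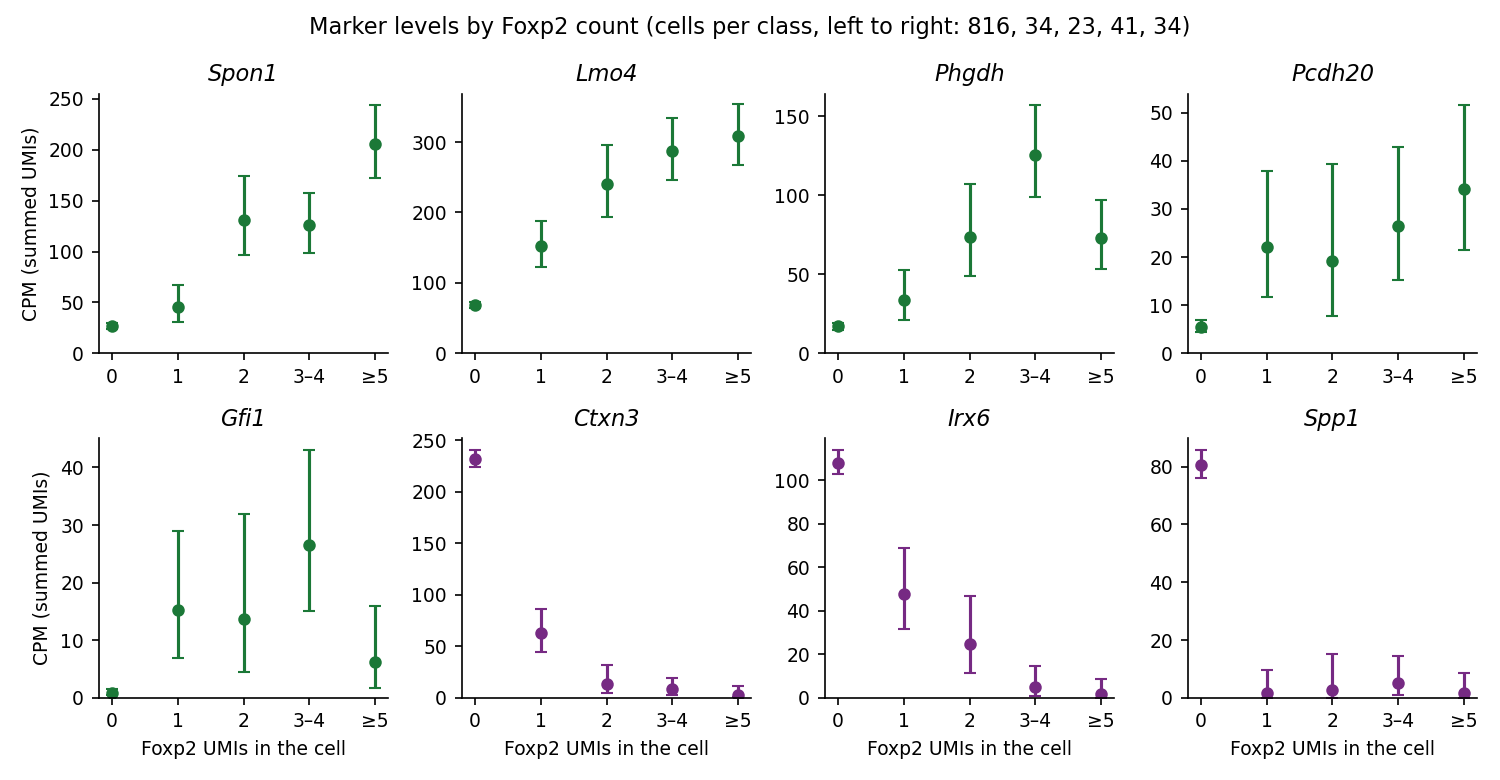
Levels of 8 genes (CPM of summed UMIs, linear axis, 95% Poisson intervals) in ganglion cell gate barcodes with 0, 1, 2, 3 or 4, and 5 or more Foxp2 UMIs (816, 34, 23, 41 and 34 cells). Spon1 reaches 206 CPM and Ctxn3 3.10 CPM in the class with 5 or more, against 26.4 and 232 CPM in the class with 0.

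Against the Foxp2-undetected cells, the 98 Foxp2-high cells had far fewer genes up than down, and defining genes of several other ganglion cell types were nearly missing. A gene was counted as 2-fold changed where the ratio of its CPM, with 5 CPM added to both classes, was at least 2. By that rule 36 of 9650 genes with 100 UMIs or more were higher (0.373%) and 171 were lower (1.77%), and the median log2 ratio of all of them was -0.01. These comparisons used the same counts as the choice of cells and are descriptions.

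The 6 genes given as markers of the cells stood as follows. Spon1 had 0 to 18 UMIs per Foxp2-high cell with a median of 2, against 0 to 13 with a median of 0 in Foxp2-undetected cells, and summed to 159 CPM against 26.4 CPM, 6.02-fold higher (5.11 to 7.08). Lmo4 had 0 to 18 UMIs with a median of 3, against 0 to 18 with a median of 0, and was 4.16-fold higher (3.71 to 4.65) at 285 CPM against 68.6 CPM. The range of Lmo4 was the same in both classes, that of Spon1 reached higher in Foxp2-high cells, and 90 of 98 Foxp2-high cells and 402 of 816 Foxp2-undetected cells had an Lmo4 UMI. Phgdh was 5.44-fold higher (4.40 to 6.70), with a UMI in 45 and 141 cells. Pcdh20, a protocadherin of the cell surface, was 5.02-fold higher (3.40 to 7.35), with a UMI in 28 and 56 cells. Gfi1, a zinc-finger repressor, had 25 UMIs in 19 Foxp2-high cells and 12 UMIs in 10 Foxp2-undetected cells, 17.9-fold higher by CPM (8.66 to 39.1), and was below the minimum of UMIs for the counts. Spon1 and Lmo4 thus marked most of the 98 cells, and Phgdh, Pcdh20 and Gfi1 each marked fewer than 1 in 2 of them.

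Shares of cells with a UMI were compared at equal depth, with each barcode thinned at random to 12500 UMIs, which kept 82 of the 98 cells, 603 of the 816 and 120 of the 456 horizontal gate barcodes (median 11082.5 UMIs before thinning). Spon1 was then detected in 65.9% of Foxp2-high cells, 17.1% of Foxp2-undetected cells and 10.8% of horizontal gate barcodes. Gfi1 was detected in 17.1%, 0.995% and 0%, the last of a count of 0 that allows a share of up to 2.50%. Pcdh20 was detected in 23.2%, 5.31% and 3.33%, so its share in Foxp2-undetected cells was within the counting error of the horizontal share. Lmo4 was detected in 90.2%, 45.9% and 98.3%, and horizontal cells are no background for it.

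Among genes that the labels of the class did not name, several receptors and membrane proteins were higher. Neto2, an auxiliary subunit of kainate receptors, was 3.46-fold higher (2.92 to 4.08), and Grik3, a kainate receptor subunit, 2.86-fold (1.90 to 4.23). Grm4, a metabotropic glutamate receptor, was 2.84-fold higher (2.00 to 3.98). Kcnip4, a subunit that modulates A-type potassium channels, had a UMI in every one of the 98 cells and was 2.09-fold higher (1.95 to 2.24). Tusc5, also named Trarg1, which encodes a trafficking regulator of the glucose transporter GLUT4, was at 851 CPM against 272 CPM, 3.13-fold higher (2.94 to 3.33). Lpl, the lipoprotein lipase, was 3.71-fold higher (2.84 to 4.83), and the long noncoding RNAs Gm13373, Gm12027 and Gm26812 were 5.35-fold, 3.24-fold and 3.86-fold higher.

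Of 9 factors used to tell F-RGC members apart, Foxp1 was 2.31-fold higher (1.89 to 2.81), Irx4, an Iroquois homeodomain factor, 2.23-fold (1.84 to 2.69) and Pcdh20 5.02-fold, while Pou4f3 was 3.23-fold lower (2.32 to 4.64) and Ano3, of the anoctamin family, 4.90-fold lower (3.28 to 7.69). Pou4f1 (Brn3a) had 1 to 33 UMIs per Foxp2-high cell with a median of 11, against 0 to 33 with a median of 6, and was present in all 98 cells and in 719 of 816. Its ratio of 1.72 (1.62 to 1.83) was under 2. Pou4f2, the reporter gene, was at 71.2 CPM against 87.1 CPM.

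Genes of other named ganglion cell types were among the 171 that were lower. Opn4 (melanopsin) had a UMI in 4 Foxp2-high cells and 111 Foxp2-undetected cells and was 25.9-fold lower (10.1 to 95.2), and of 5 intrinsically photosensitive ganglion cell genes that passed the minimum 4 were at least 2-fold lower (Opn4, Eomes, Tbx20 and Rasgrp1). Spp1 (osteopontin), a marker of alpha ganglion cells, was 26.1-fold lower (11.1 to 80.5), and 3 of 4 alpha genes were lower. Of 5 genes of the Tbr1 and J types 4 were lower, with Tbr1 itself at 1 UMI against 171. Medians of these 3 lists were -1.82, -1.89 and -1.37 on the log2 scale. Cartpt, a peptide precursor of direction-selective ganglion cells, was 4.93-fold lower (4.53 to 5.38), although 83 of 98 cells and 691 of 816 had a UMI of it. Zic1, a zinc-finger factor, had 0 UMIs against 195, at least 7.57-fold lower by the floor of 3 UMIs.

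Ctxn3 had the lowest ratio of the genes plotted. It had 0 to 2 UMIs per Foxp2-high cell against 0 to 72 per Foxp2-undetected cell, 7.43 CPM against 232 CPM, and was 31.2-fold lower (17.9 to 60.5). At equal depth it was detected in 9 of 82 Foxp2-high cells, 181 of 603 Foxp2-undetected cells and 9 of 120 horizontal gate barcodes, so its share in Foxp2-high cells was at the background. Grin2a, an NMDA receptor subunit, was 11.3-fold lower (6.14 to 23.7), with a UMI in 7 and 408 cells. Irx6, another Iroquois factor, was 13.4-fold lower (7.82 to 25.3), with a UMI in 10 and 455 cells. The Iroquois family was thus divided, with Irx4 higher and Irx3, Irx5 and Irx6 lower. The nicotinic receptor subunits Chrna6 and Chrna3 were 3.56-fold (2.99 to 4.28) and 5.76-fold (3.11 to 12.1) lower. Of the listed genes that passed the minimum, of 17 neuropeptide genes 6 were lower and 1 higher, of 48 transcription factors 11 were lower and 3 higher, and of 18 protocadherin and cadherin genes 5 were lower and 1 higher.

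Coch, which encodes cochlin, a secreted matrix protein known from the inner ear, and Lor, which encodes loricrin, a protein of the skin's cornified envelope, led the comparison at 16.8-fold (13.7 to 20.8) and 8.52-fold (7.31 to 9.92). A few cells carried them. Coch had a UMI in 17 Foxp2-high and 86 Foxp2-undetected cells, with up to 43 UMIs in a cell against up to 9. Lor had a UMI in 26 Foxp2-high and 250 Foxp2-undetected cells, with up to 54 against up to 7. When only the 78 Foxp2-high cells with 1 or fewer UMIs of the pair were set against the 816, Coch and Lor were lower in them, by 1.59 and 1.56 on the log2 scale, and Gas7 was lower by 0.45. That choice removes the cells with Coch and Lor by construction. Spon1 was still 3.88-fold higher (3.13 to 4.77), Lmo4 3.26-fold (2.84 to 3.74), Phgdh 7.24-fold (5.85 to 8.93), Pcdh20 6.82-fold (4.61 to 9.98) and Neto2 4.56-fold (3.84 to 5.39). Lpl, Gm13373, Grm4 and Foxp1 were no longer 2-fold higher in these 78 cells, at log2 ratios of 0.83, 0.76, 0.95 and 0.93.

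The 16 cells with 5 or more UMIs of Coch and Lor were the most distinct subgroup. Every one of them had Meis2, a TALE homeodomain factor, together with genes of neuropeptide secretion, and Adora1 and Phgdh had no UMI in any of them, Tusc5 a UMI in 2 and Necab2 in 5, while most of the 78 cells low in Coch and Lor carried these genes. With 50 UMIs or more required inside the 98 cells, 185 of 4655 genes were at least 2-fold higher (3.97%) and 250 lower (5.37%) in the 16 than in the 78. For 22 of the 185 and 6 of the 250, 1 cell held over 20% of the UMIs of the higher class. The 16 cells were also deeper, with a median of 20085 UMIs against 15027.5.

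Coch had 5 to 43 UMIs per cell (median 13.5) and Lor 6 to 54 (median 16.5) in the 16 cells, against 0 and at most 1 in the 78, as the choice of cells requires. Meis2 had 10 to 24 UMIs per cell with a median of 15.5, against 0 to 16 with a median of 0, and was at 708 CPM against 25.2 CPM, 28.0-fold higher (19.2 to 42.4). It was present in 16 of 16 cells and in 5 of 78, and the ranges met only because 1 of the 78 had 16 UMIs and another had 11. The 4 cells between the classes had 5 to 13 UMIs of Meis2.

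Vgf, a precursor of secreted peptides, had 2 to 16 UMIs (median 8) against 0 to 4 (median 0) and was 21.0-fold higher (13.0 to 35.4). Gas7, a growth-arrest protein of the cytoskeleton, was 38.5-fold higher (17.9 to 98.8), with a UMI in 15 of 16 cells against 6 of 78. Ntng1 (netrin-G1), a membrane-anchored adhesion protein, was 12.7-fold higher (9.11 to 18.0), and Dlgap1, a postsynaptic scaffold protein, 13.8-fold (9.18 to 21.2), and both had a UMI in all 16 cells. Further genes were the synaptotagmin Syt13 at 7.74-fold (5.13 to 11.9), the regulator of G-protein signalling Rgs8 at 8.48-fold (4.83 to 15.5), the protocadherin Pcdh9 at 7.49-fold (5.01 to 11.4) and the calcium-activated potassium channel Kcnn2 at 8.32-fold (4.57 to 15.9). Of 10 neuropeptide and secretory genes that passed the minimum, 6 were higher (Vgf, Gal, Crh, Scg2, Chga and Pcsk2) and 2 lower (Tac1 and Cartpt), with a median log2 ratio of 1.34 against -0.01 for all genes. The peptide Gal (galanin) had 51 UMIs spread over all 16 cells, 22% of them in 1 cell, and 3 UMIs in 1 of the 78. Crh (corticotropin-releasing hormone) was different, with 73 UMIs in 4 of the 16 cells and 63% of them in 1 cell. Over 7 listed genes of direction-selective cells, Cartpt among them, 1 of the 78 cells held 193 of 492 UMIs. Cartpt was under 2-fold lower where 3 or more Foxp2 UMIs were required (log2 ratio -0.19) or 5 or more (-0.14). It was also under 2-fold lower at equal depth (-0.96) and without cells holding 3 or more UMIs of other cells' markers (-0.56). Of 17 potassium channel genes 6 were higher and 2 lower, with a median of 0.85.

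Tusc5 showed the widest gap in the other direction. It had 0 or 1 UMI in each of the 16 cells and 0 to 76 UMIs with a median of 12 in the 78, with a UMI in 2 of 16 and 77 of 78 cells, and was 211-fold lower (58.3 to 1745). Necab2, a neuronal calcium-binding protein, had 0 to 2 UMIs against 0 to 17 (median 6) and was 22.9-fold lower (10.4 to 62.7). The adenosine receptor Adora1 had 0 UMIs against 161, at least 16.5-fold lower. The semaphorin receptor Nrp1 had 0 against 111, at least 11.4-fold lower, and the corticotropin-releasing hormone receptor Crhr1 0 against 91, at least 9.34-fold lower. None of the 16 cells thus had a single UMI of Adora1, Nrp1 or Crhr1.

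The Iroquois factors Irx2 and Irx4 were 31.7-fold (5.57 to 1264) and 21.4-fold (5.81 to 178) lower in the 16 cells. Pou4f1 had 4 to 17 UMIs (median 7.5) against 1 to 33 (median 12) and was 2.18-fold lower (1.83 to 2.62), with overlapping ranges. Spon1 and Lmo4 were also higher in the 16 cells than in the 78. Spon1 had 3 to 18 UMIs (median 8.5) against 0 to 6 (median 1), 3.57-fold higher (2.77 to 4.60), and Lmo4 was 2.17-fold higher (1.79 to 2.64). Among cells with Foxp1 (13 against 27), Lmo4 was 1.33-fold higher (1.05 to 1.69). Of 13 calcium-binding genes 7 were lower and 2 higher, and of 15 immediate-early and stress genes 6 were lower. Of 7 genes of a serine and one-carbon list 5 were lower (Asns, Chac1, Mthfd2, Phgdh and Psph).

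Markers of other retinal cells also differed here. Amacrine markers summed to 1118 CPM in the 16 cells (13 to 42 UMIs per cell) and 396 CPM in the 78 (0 to 27 UMIs), with the homeodomain factor Pax6 2.50-fold higher (2.11 to 2.95). Of the 12 amacrine genes 6, including Gad1, Slc32a1 and Tfap2a, were at 0 UMIs in the 16 cells, while Gad2, a GABA-synthesizing enzyme, had 31 UMIs in 12 of them against 5 UMIs in 3 of the 78. Slc17a6, the glutamate transporter used by the gate, was present in all 16 at 426 CPM against 285 CPM. Mueller glia markers summed to 445 CPM against 281 CPM, with Clu and Dkk3 at least 2-fold higher, and rod markers to 404 CPM against 886 CPM. The part of these markers in the result was not tested. The doublet caller marked none of the 16 cells. Leaving out cells that held 3 or more UMIs of markers of other retinal cells kept 6 against 42. Of 2568 genes 123 were then higher, Meis2 had a log2 ratio of 6.86, and Lmo4 was under 2-fold at 0.62.

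**Figure D2:**
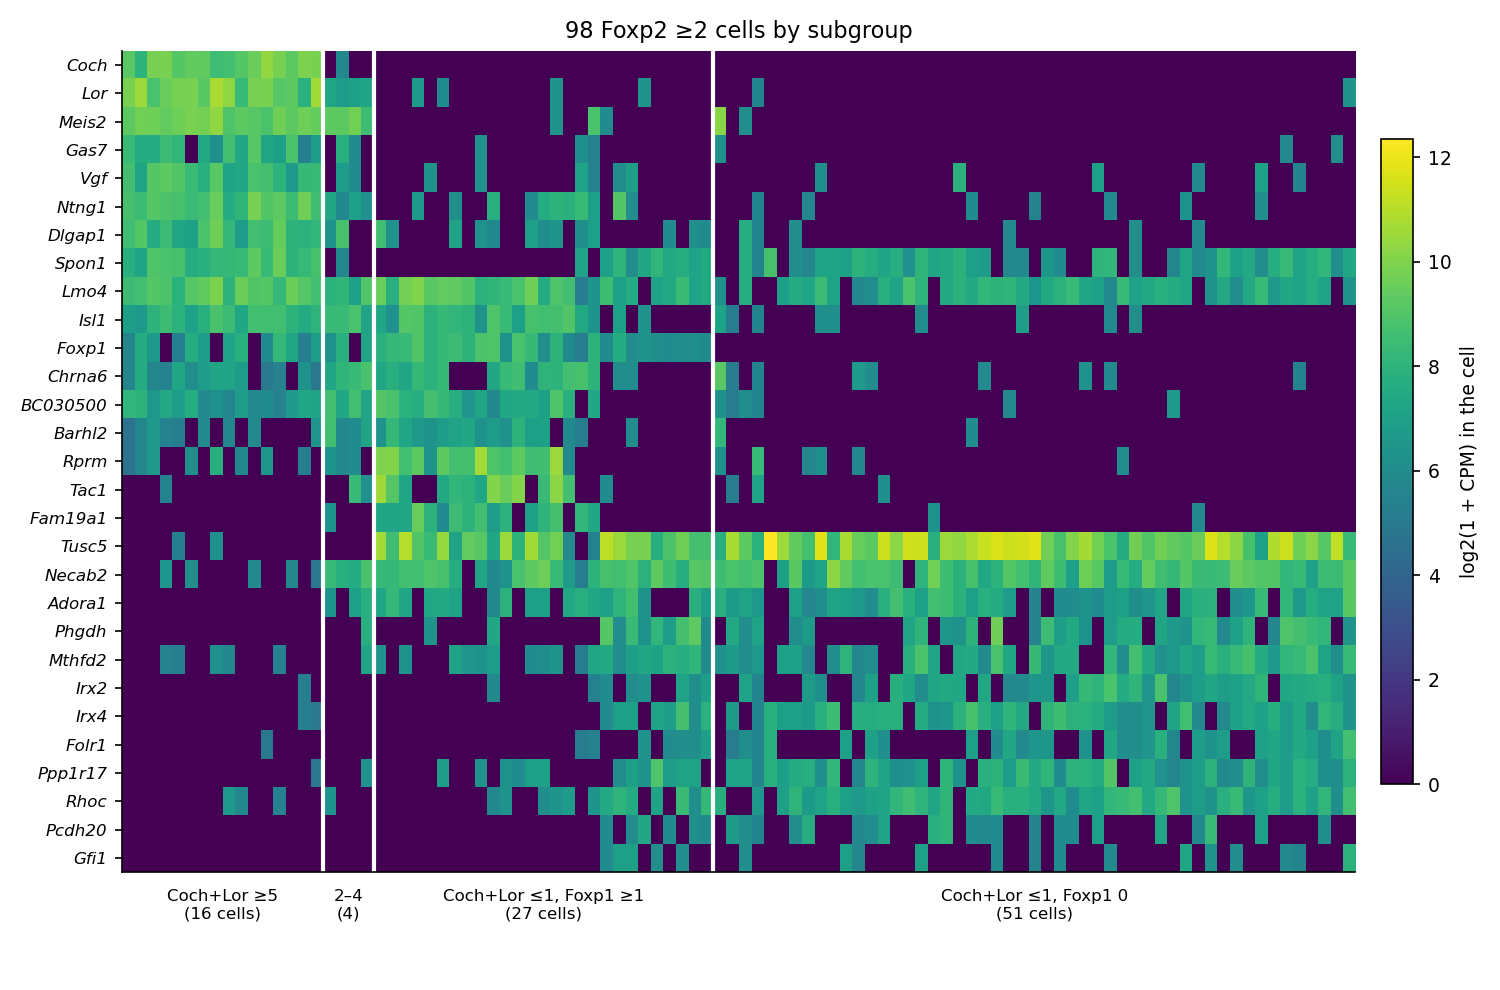
Level of 29 genes, as log2(1 + CPM) in the cell, in each of 98 Foxp2-high cells, in columns by subgroup from left to right (16 cells with 5 or more Coch and Lor UMIs, 4 with 2 to 4, 27 with 1 or fewer and Foxp1, 51 with 1 or fewer and no Foxp1) and ordered within a subgroup by counts of the gene panels described in the text. Meis2 fills the first block, Tusc5 the other 78 cells except 1, and within those 4 of the 17 cells with Tac1 also have Irx4 and 3 have Irx2.

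Tac1, Fam19a1, Rprm and Isl1 were higher in Foxp2-high cells with Foxp1 than in those without it, and Irx2, Irx4 and Folr1 were lower. The division was partial: 15 of the 43 cells with Foxp1 had a UMI of Tac1, and 10 had one of Irx4. Over all 98 cells 86 of 4763 genes were at least 2-fold higher with Foxp1 (1.81%) and 45 lower (0.945%). Since 13 of the 16 Coch and Lor cells had Foxp1, the comparison was repeated within the 78 cells that had 1 or fewer UMIs of the pair, an alternative added after the first values were seen. Of 3835 genes 45 were higher (1.17%) and 38 lower (0.991%) in the 27 cells with Foxp1 than in the 51 without, at median depths of 14578 and 15097 UMIs. Thinning to equal depth, with shallower cells left out and classes cut again, kept 29 cells with Foxp1 and 42 without. Of 3118 genes 31 were then higher and 28 lower with Foxp1. The values that follow are from the 78 cells.

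Tac1, the precursor of substance P, had 0 to 20 UMIs with a median of 1 in cells with Foxp1, against 0 to 3 with a median of 0, and was at 277 CPM against 6.43 CPM, 43.0-fold higher (17.9 to 135). It had a UMI in 14 of 27 and 3 of 51 cells. Fam19a1, a secreted TAFA-family protein, had 58 UMIs in 16 cells against 2 UMIs in 2 cells, a ratio of 54.7 (14.5 to 463). Rprm (reprimo), a cell-cycle inhibitor, was 21.1-fold higher (11.7 to 41.8), the LIM-homeodomain factor Isl1 14.2-fold (7.56 to 29.6) and the homeodomain factor Barhl2 11.3-fold (4.35 to 37.4). The nicotinic subunit Chrna6 was 7.33-fold higher (4.25 to 13.3), and the adhesion protein Nrxn3 6.56-fold (3.89 to 11.6). BC030500, a gene that lies inside Galntl6 on the other strand, was 15.9-fold higher (7.26 to 41.3).

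Lower in cells with Foxp1 were Irx2, with 10 UMIs against 93 and 4.93-fold lower (2.56 to 10.6), and Irx4, with 0 to 6 UMIs (median 0) against 0 to 7 (median 2) and 3.15-fold lower (1.95 to 5.35). Folr1, a folate receptor, was 3.64-fold lower (1.73 to 8.86), and 1700017N19Rik 3.18-fold (1.56 to 7.32). Nrgn (neurogranin), a calmodulin-binding protein of neurons, was 2.53-fold lower (2.01 to 3.23). The ranges of Irx2 and Irx4 overlapped between the classes. Foxp2 itself was at 257 CPM in the 27 cells and 266 CPM in the 51, with 2 to 9 and 2 to 8 UMIs per cell and a median of 4 in both. Amacrine markers summed to 509.9 CPM in the 27 cells (1 to 18 UMIs per cell, 6 of 12 genes at 0) and 335.8 CPM in the 51 (0 to 27 UMIs, 2 of 12 at 0), and their part in the result was not tested.

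**Figure D3:**
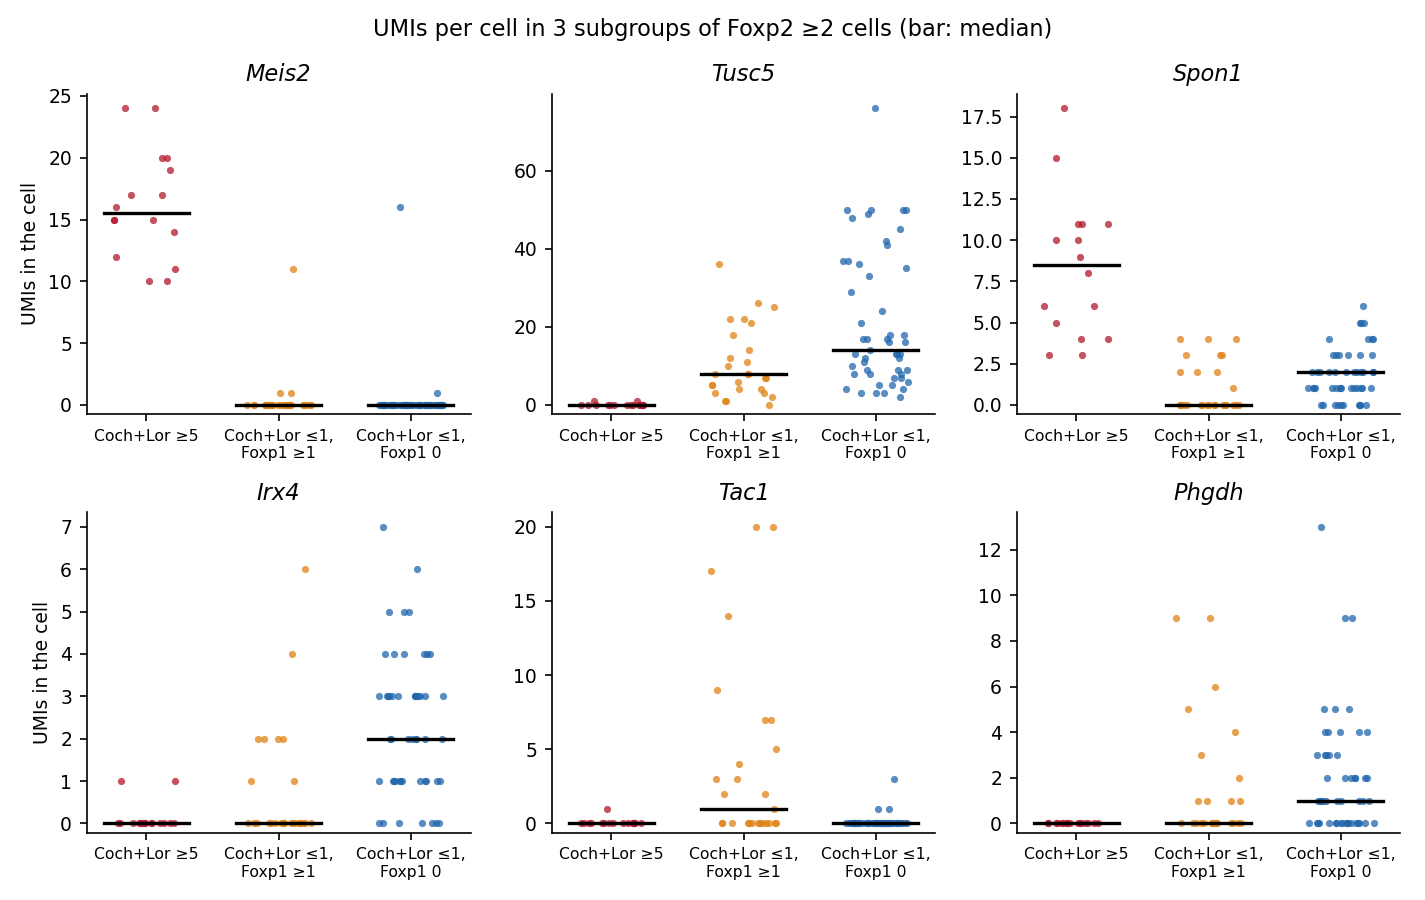
UMIs per cell of 6 genes in 16 cells with 5 or more Coch and Lor UMIs, 27 with 1 or fewer and Foxp1, and 51 with 1 or fewer and no Foxp1 (points, jittered sideways; bars are medians). Median Meis2 counts are 15.5 in the first class and 0 in both others, and median Irx4 counts are 2 in the last class and 0 in both others.

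How far these genes go together in single cells was counted with 2 panels of 7 genes, chosen after their values were seen and from genes that differed by Foxp1 in these same cells. The Tac1 panel held Tac1, Fam19a1, Rprm, Isl1, BC030500, Barhl2 and Chrna6, and the Irx panel held Irx2, Irx4, Folr1, Ppp1r17, Rhoc, 1700017N19Rik and Nnat. Of the 78 cells, 18 had a UMI of 4 or more genes of the Tac1 panel only, 51 of the Irx panel only, 3 of both and 6 of neither. The choice of panels builds in a match with Foxp1, and the match was not complete. Of the 27 cells with Foxp1, 17 were of the first kind and 8 of the second, and of the 51 without it 1 was of the first kind and 43 of the second. The 16 Coch and Lor cells had 2 to 5 genes of the Tac1 panel and 0 to 2 of the Irx panel, and 13 of them had 4 or more of the Tac1 panel, so these panels do not separate them from the first kind. All 16 had 6 or 7 genes of a Meis2 panel (Meis2, Gas7, Vgf, Ntng1, Dlgap1, Syt13 and Kcnn2), against 0 to 7 with a median of 1 in the 78, of which 6 cells had 4 or more. These genes were taken from the same comparison.

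The marker genes of the Foxp2-high class fell unevenly on these 3 kinds of cell, which are given as a description since they were drawn from the values. Their median depths were 20085, 13616.5 and 15125 UMIs. Spon1 had a UMI in 16 of 16 Coch and Lor cells, 1 of 18 Tac1-panel cells and 44 of 51 Irx-panel cells, at 366, 15.1 and 138 CPM. Lmo4 was at 486, 440 and 171 CPM in the same order. Phgdh had a UMI in 0, 2 and 37 cells. Pcdh20 had a UMI in 0, 0 and 23 cells, and Gfi1 in 0, 0 and 16. Tusc5 was at 5.46, 647 and 1329 CPM, and Foxp1 at 104, 248 and 12.8 CPM. Foxp2 was at 295, 256 and 265 CPM. No marker of the class other than Foxp2 was therefore present in most cells of all 3 kinds except Lmo4, and Pcdh20 and Gfi1 were detected in the Irx-panel kind alone among these 3. With 18 cells of the second kind a gene at 0 UMIs can still be at up to 13.9 CPM.

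Tac1, Isl1, Irx4 and Meis2 were not limited to Foxp2-high cells. At equal depth Tac1 was detected in 19.5% of Foxp2-high and 34.0% of Foxp2-undetected cells, against 4.17% of horizontal gate barcodes. Isl1 was detected in 41 of 82, 460 of 603 and 12 of 120 cells, Irx4 in 42, 184 and 3, and Meis2 in 23, 116 and 0, the last of which allows a share of up to 2.50%.

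**Figure D4:**
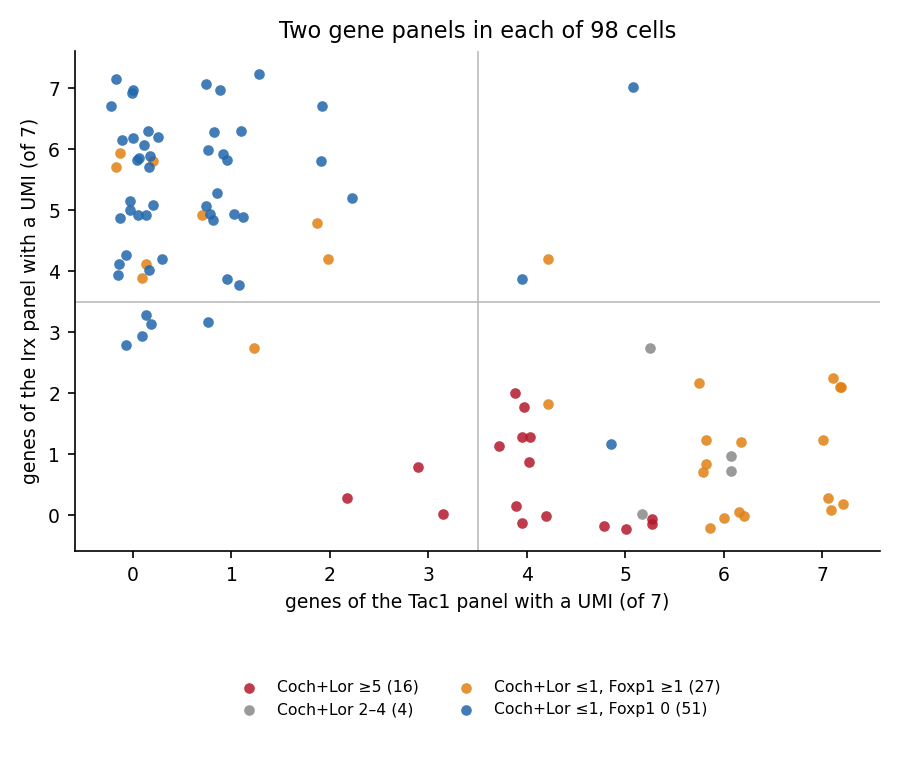
Number of genes of the Tac1 panel (horizontal axis) and of the Irx panel (vertical axis) with a UMI in each of 98 Foxp2-high cells, coloured by subgroup and jittered. Grey lines mark 4 or more of 7 genes; 3 of the 78 cells with 1 or fewer Coch and Lor UMIs lie beyond both lines and 6 beyond neither.

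Mthfd2, Asns, Chac1 and Psph were at higher levels in cells with Phgdh than in cells without, which carried them too. PHGDH starts serine synthesis from a glycolytic intermediate, PSPH ends it, and MTHFD2 uses the one-carbon unit that serine gives in mitochondria. These genes, with the asparagine synthetase gene Asns and the glutathione-degrading enzyme gene Chac1, are known targets of the stress-responsive factor ATF4. Over all 98 cells, 50 of 4763 genes were at least 2-fold higher in the 45 cells with Phgdh (1.05%) and 108 lower (2.27%). None of the 16 Coch and Lor cells had Phgdh, a share of 0% that allows up to 20.6%, against 44 of the 78 others, 56.4% (44.7 to 67.6%). Among the genes lower with Phgdh were Coch, with 0 UMIs against 272, Lor, Meis2 and Gas7.

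Mthfd2 had 0 to 7 UMIs with a median of 2 in cells with Phgdh, against 0 to 4 with a median of 1, and was at 190 CPM against 41.9 CPM, 4.54-fold higher (3.15 to 6.69). Asns had 0 to 13 UMIs (median 3) against 0 to 7 (median 1) and was 2.83-fold higher (2.18 to 3.69). Chac1 was 3.00-fold higher (1.87 to 4.94), Psph 2.52-fold (1.69 to 3.81) and Herpud1, a gene of the endoplasmic reticulum stress response, 2.98-fold (2.11 to 4.27). Of 6 genes that passed the minimum on a serine and one-carbon list, 4 were at least 2-fold higher (Asns, Chac1, Mthfd2 and Psph) and none lower. That list also held Asns and Chac1, so of these 4 only Mthfd2 and Psph act in the pathway described above. The median log2 ratio of the 6 genes was 1.34, against 0.00 for all genes. Gfi1 had 23 UMIs in 17 cells with Phgdh and 2 UMIs in 2 cells without, and Pcdh20 was 3.51-fold higher (1.77 to 7.47). Irx2 and Irx4 were 3.64-fold (2.32 to 5.88) and 2.55-fold (1.78 to 3.71) higher. Leaving out cells that held 3 or more UMIs of markers of other retinal cells kept 23 cells against 26. Of 2612 genes 9 were then higher and 60 lower, and Mthfd2, Asns and Chac1 had log2 ratios of 1.67, 1.31 and 1.52. In those cells Psph and Irx4 were under 2-fold, at 0.66 and 0.62. With cells thinned to equal depth, Psph and Pcdh20 were under 2-fold, at 0.76 and 0.41. Amacrine markers summed to 363.8 CPM in cells with Phgdh (0 to 27 UMIs per cell, 2 of 12 genes at 0) and 726.3 CPM in cells without (0 to 42 UMIs, 5 of 12 at 0), and their part was not tested.

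The same comparison within the 78 cells low in Coch and Lor, added after the first values were seen, gave 27 of 3835 genes higher (0.704%) and 34 lower (0.887%) in 44 cells with Phgdh than in 34 without. Mthfd2 was 2.86-fold higher (1.94 to 4.32), Asns 2.59-fold (1.89 to 3.60), Chac1 2.36-fold (1.38 to 4.25) and Herpud1 2.52-fold (1.68 to 3.88). Atf5, a bZIP factor related to ATF4, was 2.60-fold higher (1.68 to 4.14), and Cntfr, the receptor of ciliary neurotrophic factor, 2.98-fold (1.68 to 5.63). Psph was no longer at least 2-fold higher there, at 1.95-fold (1.25 to 3.12). Pcdh20 and Irx4 were also under 2-fold there, at log2 ratios of 0.84 and 0.54. Genes of the Tac1 panel were lower, with Fam19a1 at 6 UMIs against 54, Rprm 9.43-fold lower (5.79 to 16.2), Chrna6 7.59-fold (4.17 to 15.0) and Isl1 5.22-fold (3.15 to 9.03). Phgdh had a UMI in 2 of 18 Tac1-panel cells and 37 of 51 Irx-panel cells. Mthfd2 was at 13.7, 48.9 and 172 CPM in the Coch and Lor, Tac1-panel and Irx-panel cells. Higher levels with Phgdh therefore cannot be told apart from differences between these kinds of cell. Median depths were 15372 and 14261.5 UMIs, and a zero Phgdh count in a shallow cell can also be a missed transcript.

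Promoters of these genes are shown because Mthfd2, Asns and Chac1 were higher in the cells chosen by Phgdh. The sequences are RefSeq promoters of the GRCm38.p6 build, 5′ to 3′ on the strand of the gene, from 250 bases before the start of transcription to 50 after it. Capitals mark the letters TGATGNAA, or their reverse complement where they lie on the other strand, the C/EBP-ATF response element that ATF4 is known to bind. The motif was chosen after the values were seen. The promoter of Asns lies at chr6:7693160-7693459 on the minus strand and that of Chac1 at chr2:119350992-119351291 on the plus strand. The promoters of Phgdh at chr3:98339920-98340219 and Mthfd2 at chr6:83317555-83317854 lie on the minus strand.
Asns: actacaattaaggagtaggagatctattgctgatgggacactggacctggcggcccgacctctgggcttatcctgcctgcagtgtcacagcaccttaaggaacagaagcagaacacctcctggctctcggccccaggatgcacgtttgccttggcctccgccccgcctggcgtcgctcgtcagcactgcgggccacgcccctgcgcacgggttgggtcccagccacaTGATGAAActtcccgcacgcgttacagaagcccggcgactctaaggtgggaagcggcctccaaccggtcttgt
Chac1: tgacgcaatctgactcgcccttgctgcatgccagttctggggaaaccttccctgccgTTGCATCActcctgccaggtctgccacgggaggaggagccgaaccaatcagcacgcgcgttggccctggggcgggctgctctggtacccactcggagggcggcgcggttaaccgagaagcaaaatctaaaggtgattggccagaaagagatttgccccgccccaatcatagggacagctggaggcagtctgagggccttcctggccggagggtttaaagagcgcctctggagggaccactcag
Phgdh: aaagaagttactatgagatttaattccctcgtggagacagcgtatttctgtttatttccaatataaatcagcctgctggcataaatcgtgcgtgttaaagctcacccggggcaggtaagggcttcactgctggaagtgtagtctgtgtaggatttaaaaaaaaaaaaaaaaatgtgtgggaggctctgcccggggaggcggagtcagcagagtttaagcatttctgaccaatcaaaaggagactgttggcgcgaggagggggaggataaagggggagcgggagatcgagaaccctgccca
Mthfd2: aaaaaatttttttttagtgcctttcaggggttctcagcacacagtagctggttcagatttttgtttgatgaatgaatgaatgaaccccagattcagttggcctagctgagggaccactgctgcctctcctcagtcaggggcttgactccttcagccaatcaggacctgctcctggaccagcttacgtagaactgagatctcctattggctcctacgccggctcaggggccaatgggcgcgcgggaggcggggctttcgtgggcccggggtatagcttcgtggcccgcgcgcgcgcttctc

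Asns held TGATGAAA from 23 bases before its start (position -23), and Chac1 held TTGCATCA from position -193. Herpud1 also held a match, so that 3 of the 8 promoters found for the 10 genes highest with Phgdh had one (37.5%). Among all promoters 1304 of 32851 had one (3.97%), both strands searched. Genes and motif were both picked from values already seen, so these shares are a description. A part of ATF4 was not tested. Over the serine and one-carbon list 3 of 18 promoters had a match (16.7%), those of Asns, Chac1 and Trib3. The promoter of Lor, which was lower with Phgdh, had a match too. Phgdh and Mthfd2 held none in this window, which says nothing of sites elsewhere. The forkhead core TGTTTAC, searched on both strands, was in 1199 of 32851 promoters in all (3.65%). It was in none of 23 promoters of the 8 genes with an entry among the 14 highest with Foxp2. With so few promoters a count of 0 cannot be told apart from that share.

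Gene positions were read from an annotation of the build the authors used. Foxp2 lies at chr6:14901349-15441977 and Foxp1 at chr6:98925338-99522721, Coch at chr12:51593341-51605771, Lor at chr3:92080271-92083142, Meis2 at chr2:115863064-116065839, Spon1 at chr7:113765998-114043370 and Tac1 at chr6:7554879-7565834. Irx2 at chr13:72628820-72634198 and Irx4 at chr13:73260479-73269608 lie in 1 Iroquois cluster, and Irx6, which was lower, lies in another at chr8:92674288-92680956. Of 161 genes named by the rule, 40 overlap another annotated gene on the same strand, Foxp1, Lmo4 and Mthfd2 among them, and 68 on the other strand. Counts of such genes may hold reads of the partner.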

How the data were processed

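Per the labels' protocols, cells went through the 10x Chromium V2 workflow for 3' ends and an Illumina Xten. The submitters' processing notes name Cell Ranger, Seurat 2.2 and mm10, without saying how counting used strand. The deposited matrix holds raw UMI counts for 27999 genes in 3237 barcodes. It was used as deposited. Classes of cells were cut from UMI counts, UMIs were summed per class and divided by the class total (CPM), and ratios were called at 2-fold with 5 CPM added. Minimum totals were 100 UMIs for Foxp2-high against Foxp2-undetected cells and 50 inside the Foxp2-high cells. The genes that choose a class were left out of the counts.

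Intervals are exact Poisson, Clopper-Pearson and conditional binomial intervals at 95% (scipy 1.17.1); the floor is 3 UMIs over the class. They cover counting error only. Nothing ties barcodes to the 4 retinas, so no replicate exists. The script for ratios was checked on simulated counts. Doublets were called with Scrublet in scanpy 1.11.5 but kept.

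Named genes are the 14 highest and 10 lowest ratios for Foxp2 and 10 of each inside the class, without ribosomal and mitochondrial genes and genes with over 20% of UMIs in 1 cell, plus the markers, the F-RGC factors and at most 4 changed genes per list. Other genes, and the 3 panels, were named after their values were seen. Cells and lists were chosen with earlier results of these data known. Promoters are from RefSeq (GRCm38.p6), positions from GENCODE. A planned comparison of the Foxp2 and Foxp1 proteins is not made here, and some genes that met the rule are not reported here.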

Additional observations from a re-analysis of the deposited data

Results flagged for a closer look

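Foxp2 was also counted outside the ganglion cell gate. Of 2289 barcodes outside it, 12 had 2 or more Foxp2 UMIs, with 2 to 8 each, and they entered none of the comparisons. Of these 12, 7 had no Slc17a6 UMI, 8 had fewer than 3 UMIs of Slc17a6 and Rbpms together, 2 had 2 or more Lhx1 UMIs and 1 had a mitochondrial share of 10% or more, and a barcode can fail on more than 1 ground. Pou4f1 was present in 10 of them. In the gates of other cells, 4 lay in the bipolar gate, 2 in the Mueller glia gate and none in the horizontal gate, where 456 barcodes were counted.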

How the results depend on the processing

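No paired analysis was possible because no file ties a barcode to a retina, and for the same reason no replicate could be left out. With no minimum of UMIs, 56 of 17274 genes were 2-fold higher for Foxp2, and of 13951 genes 234 were higher and 530 lower for Phgdh. For Coch and Lor the counts became 802 and 911 of 13882, and for Foxp1 468 and 231 of 13951. Requiring 5 or more Foxp2 UMIs gave 288 of 9501 genes lower for Foxp2, and 101 higher and 109 lower of 2317 for Coch and Lor. Adding 1 CPM gave 293 of 9650 lower for Foxp2. Thinning to equal depth gave 26 higher and 57 lower of 3118 for Phgdh and 31 and 28 of 3118 for Foxp1. Leaving out cells with 3 or more UMIs of other cells' markers gave 9 and 60 of 2612 for Phgdh. For Coch and Lor it gave 123 of 2568 higher. The subsets chosen after seeing the data were cells low in Coch and Lor, or cells with Foxp1 for the Coch and Lor comparison. They gave 270 of 9574 genes lower for Foxp2 and 27 and 34 of 3835 for Phgdh. These subsets also gave 98 and 104 of 2618 for Coch and Lor, and 45 of 3835 higher for Foxp1. In them Coch, Lor and Gas7 turned to -1.59, -1.56 and -0.45 (log2) for Foxp2, and Clu to 0.15 for Phgdh. Without cells holding other cells' markers, S100b turned to 0.42 for Foxp2, and Cplx3 to -0.28, 0.18 and 0.24 for Phgdh, for Coch and Lor, and for Foxp1. Fewer cells enter several of these settings; beyond that the cause was not tested. Of 260 ratios called at 2-fold under 10 settings, 218 of 2600 were no longer 2-fold and 8 changed sign. Counts of 1 pooled sample limit every value to a description of these cells.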
